A study of Mus musculus with 20 samples.

Results

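A set of 10 heat shock genes was followed in keratinocytes of mouse skin: Hspa1a, Hspa1b, Hspa8, Hsph1, Dnajb1, Hsp90aa1, Hspb1, Hspd1, Hspe1 and Hsf1. They were chosen by name from the deposited table of read counts, and each of the 10 symbols matched 1 of its 25719 genes. All 10 had enough reads to be tested, as did 12424 genes of the table. The study had 20 mice in 4 groups of 5, with 1 library per mouse. The conditional knockout (cKO) carried Cyp11b1 L2/L2, that is, floxed alleles of the enzyme that makes active glucocorticoid, together with the transgene K14-CreERTam, a tamoxifen-inducible Cre recombinase under the promoter of keratin 14, which is active in basal keratinocytes. The controls were littermates with Cyp11b1 L2/L2 and no Cre. All 4 groups received tamoxifen for 5 days, and keratinocytes of ear and dorsal skin were collected on day 6 and sorted by flow cytometry. In the topical groups the drug was put on the skin in ethanol (20 µl on the ear, 100 µl on the dry-shaved back). In the systemic groups it was injected into the peritoneum (100 µl at 10 mg/ml, in oil and ethanol). The routes therefore differed in solvent and shaving too, and these cannot be told apart from the route. Likewise the presence of Cre cannot be told apart from the loss of Cyp11b1. The age of the mice is not given in the sources used here.

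Heat shock proteins are molecular chaperones, which keep other proteins folded, refold damaged ones and pass those beyond repair to degradation. Cytosolic HSP70 binds exposed hydrophobic stretches under the control of J-domain proteins, which deliver clients and start ATP hydrolysis, and of exchange factors such as HSP110, which release them. HSP90 takes over late folding steps, in particular of kinases and of steroid receptors such as the glucocorticoid receptor, while small heat shock proteins hold unfolding proteins without using ATP. In mitochondria HSP60 and its lid HSP10 form a folding chamber. When unfolded proteins accumulate, the transcription factor HSF1 leaves its chaperones, trimerises and binds heat shock elements, which are arrays of GAA and TTC units in alternating orientation. In epidermis HSP27 is also a known product of normal keratinocyte differentiation.

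The stretches below, from RefSeq promoter windows on GRCm38.p6 that run from 250 bases before a start site to 50 after it, are shown because they are where such elements stand in genes that the results turn on. Capitals mark GAA and TTC units that form a pair, searched as GAANNTTC or TTCNNGAA, which read the same on both strands. Positions are counted from the start site, with -1 just before it. Of the 10 genes, 7 matched a window (10 windows in all), and Hsp90aa1, Hspa8 and Hsf1 did not. A pair was found in 7 of the 10 windows, which belong to 6 genes, and in 15.1% of 32851 windows of all genes. The pair of Hspa1a and of Hspa1b, at -104 to -97, stood in 48 identical bases of the minus strand, at chr17:34972233-34972280 and chr17:34959315-34959362. Over 300 bases those windows differed at 4 positions (98.7% identity). Hspb1 had pairs at -117 to -110 and -97 to -90, within chr5:135887782-135887849 on the plus strand. Hsph1, which is not printed, had 3 pairs in each of its windows, with a run of 3 units after the start site. Such a run occurred in 0.603% of all windows, and the route difference of Hsph1 passed in neither genotype. Neither window of Dnajb1 held a pair, and 100 bases of the first are shown (chr8:83608025-83608124, plus strand) as a contrast. Hspd1 and Hspe1 are neighbours that point away from each other, and they shared a run of 4 units (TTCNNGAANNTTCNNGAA), which occurred in 8 of all windows (0.0244%), theirs included. The other window of Hspd1, at the start of its annotated gene, held no pair. The run is printed once, on the strand of Hspe1, as 30 bases only (chr1:55088053-55088082), since the place lies in an annotated exon of Hspd1.
Hspa1a: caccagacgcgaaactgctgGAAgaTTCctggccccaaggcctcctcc
Hspa1b: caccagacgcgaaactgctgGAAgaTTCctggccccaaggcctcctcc
Hspb1: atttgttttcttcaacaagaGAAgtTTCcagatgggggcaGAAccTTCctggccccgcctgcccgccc
Hspe1 and Hspd1: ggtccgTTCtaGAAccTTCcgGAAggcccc
Dnajb1: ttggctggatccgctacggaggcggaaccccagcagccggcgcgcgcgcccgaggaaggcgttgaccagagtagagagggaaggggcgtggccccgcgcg
A match is a run of letters and no evidence of binding, and the absence of one says only that these letters are not in the window. The data hold no measurement of HSF1 binding.

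Library totals ran from 11.6 to 50.1 M counts, of which the 10 genes took 0.472% to 1.37%. Cyp11b1 itself had 0 to 6 reads per library and 0 in 11 libraries, so its deletion could not be checked at this depth. Of the 20 libraries, 6 stood apart by satellite-like transcripts (12 predicted genes such as Gm10800, summing to over 50 CPM, that is, counts scaled to a common library size): all 5 systemic controls and systemic cKO 2. The sum ran from 79.4 CPM, in systemic control 1, to 37287 CPM among them, and the highest of the other 14 had 42.5 CPM. Among controls this split is the same as the route. The libraries were of keratinocytes by their markers, with Krt5, Krt14, Krt1, Krt10, Trp63 and Dsp summing to 70833 to 104858 CPM. That sum was lower in systemic cKO (73027 to 83730) than in topical cKO (86361 to 104858) with no overlap. In group means scaled as the levels below, Krt14 (54805 to 35442 CPM) and Krt5 (25867 to 22220) fell from topical to systemic cKO. Krt1 (4404 to 5504), Krt10 (11208 to 14649), Trp63 (348 to 449) and Dsp (787 to 1205) went the other way. Leukocyte markers (6 genes) summed to 15 to 31.4 CPM in systemic cKO and 5.93 to 12.1 in topical cKO, again without overlap, and to 6.67 to 26.8 and 6.72 to 13 in the controls, while Ptprc, which defines leukocytes, had group means of at most 0.0410 CPM. Cd74 carried this sum, with group means of 9.78 CPM in topical and 18.4 in systemic cKO. The other leukocyte markers had group means of at most 0.631 CPM. Erythroid markers summed to 3.45 to 7.25 CPM in systemic cKO and 0.889 to 2.04 in topical cKO, also without overlap, and sebaceous markers ranged from 192 to 3741 CPM. Of the 5 erythroid genes only 1 had enough reads to be tested, and Hbb-bt had no reads in systemic cKO. The part of these differences in the results below was not tested.

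More of the heat shock genes passed the test between routes of tamoxifen than between genotypes. Injection went with higher Dnajb1 and Hspb1, the J-domain partner of HSP70 and the small heat shock protein HSP27, in both genotypes. In controls Hspa1a and Hsf1 were also higher, and the mitochondrial pair Hspd1 and Hspe1 was lower. None of the 10 passed the test between cKO and control by either route. In controls the route test called 6 of the 10 (4 higher, 2 lower), where it called 18.3% of all genes (10.2% higher and 8.16% lower). In cKO it called 2 of 10, both higher, against 9.22% of all genes (5.19% higher and 4.02% lower). The median log2 fold change of the 10 was 0.50 in controls and 0.0949 in cKO, and that of all genes was 0.000806 and -0.0127. The tests were edgeR's quasi-likelihood F tests, two-sided, with Benjamini-Hochberg adjustment over the 12424 genes and a threshold of 0.05. The comparisons share groups with each other, so their values are set side by side and not correlated. With the satellite-like split of the libraries as a covariate, 0 of the 10 and 1 of all genes passed between routes in controls in edgeR. The log2 values of the 6 called genes then went from 1.79 to 1.58 for Dnajb1, 1.10 to 0.639 for Hspb1, 0.911 to 0.607 for Hspa1a, 0.925 to 0.0941 for Hsf1, -0.698 to -0.387 for Hspd1 and -0.779 to -0.283 for Hspe1, with adjusted p of 0.750 to 0.994. Among controls the split coincides with the route, so these values rest on systemic cKO 2 and cannot tell route and split apart. In cKO Dnajb1 and Hspb1 still passed with this covariate. In bulk RNA, fewer cells of a type and less RNA per cell cannot be told apart.

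**Figure D1:**
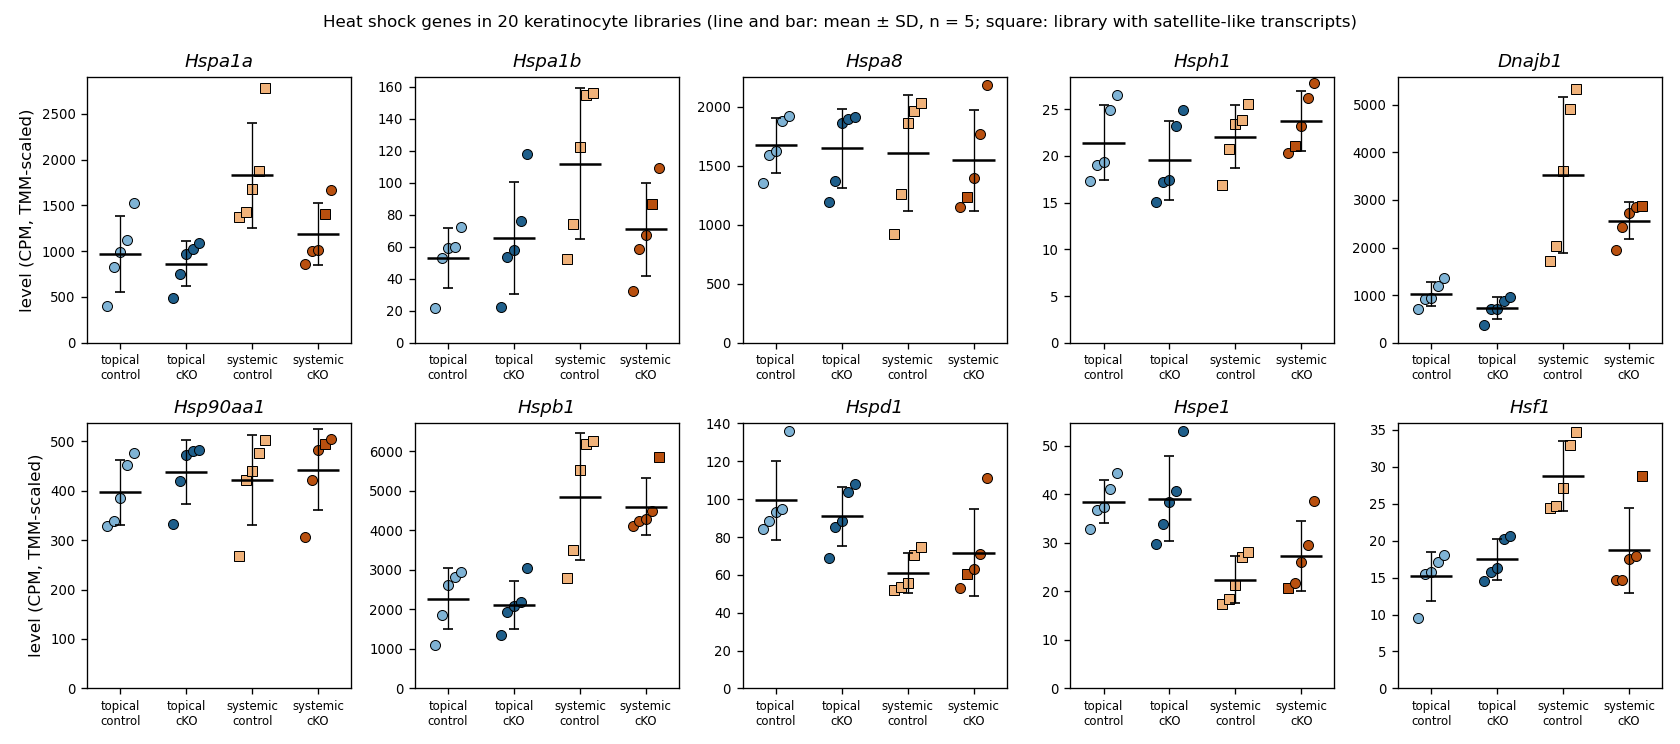
Level of each heat shock gene (CPM with TMM scaling, linear axis from 0) in the 20 libraries by group; points are mice, lines and bars are mean and SD (n = 5), and squares are the 6 libraries with satellite-like transcripts. All systemic points of Dnajb1 lie above all topical ones (1713 and up against 1363 and down), while Hsp90aa1 and Hsph1 show no such separation.

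Hspa1a (ENSMUSG00000091971, chr17:34969190-34972156, minus strand) and Hspa1b (ENSMUSG00000090877, chr17:34956436-34959238, minus strand) each have 1 exon and encode stress-inducible HSP70 proteins of nearly the same sequence. In topical controls 1, 3, 5, 6 and 7, Hspa1a stood at 1527, 988, 397, 824 and 1117 CPM, and in systemic controls 1, 3, 4, 5 and 6 at 2779, 1674, 1879, 1422 and 1375 CPM. All 5 systemic controls were above 4 of the 5 topical ones, and the groups overlapped because topical control 1 lay above systemic controls 5 and 6. The route difference in controls was 1.88-fold (log2 0.91, SE 0.312, adjusted p = 0.0454). This call rested on most of its libraries: leaving out topical control 3, 5, 6 or 7 or systemic control 1, 3 or 4 ended it, with log2 values of 0.708 to 0.966 and adjusted p of 0.0651 to 0.113. It also ended with library totals alone (adjusted p = 0.0578), with all genes that had a count (0.0685), in a fit of the control groups alone (0.0613) and with the satellite-like split as a covariate (0.983). In topical cKO 2, 3, 4, 5 and 7 the levels were 1028, 1085, 974, 750 and 486 CPM, and in systemic cKO 2, 4, 5, 6 and 7 they were 1401, 1011, 860, 999 and 1666 CPM. These groups overlapped, since only systemic cKO 2 and 7 exceeded all topical cKO libraries. The route difference in cKO was 0.46 on the log2 scale (95% interval -0.186 to 1.10) and did not pass (adjusted p = 0.399). Between genotypes Hspa1a had log2 values of -0.17 by the topical route (adjusted p = 0.997) and -0.62 by the systemic route (adjusted p = 0.346), with groups that overlapped in both.

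Hspa1b was much lower than its copy, at 3.09% to 9.82% of the reads of the pair. Its level in topical controls 1, 3, 5, 6 and 7 was 72.2, 52.7, 22.0, 59.4 and 59.6 CPM, and in systemic controls 1, 3, 4, 5 and 6 it was 155, 122, 156, 74.4 and 52.3 CPM. Systemic controls 1, 3, 4 and 5 were above all topical ones, and number 6 lay inside the topical range. Its route difference in controls, 2.11-fold (log2 1.07, SE 0.392), missed the threshold with an adjusted p of 0.0596. It passed with DESeq2 (adjusted p = 0.0315), in a fit of the control groups alone (0.0347) and without systemic control 6 (0.0372). The summed reads of the pair, most of them from Hspa1a, passed too (log2 0.92, adjusted p = 0.0448). In topical cKO 2, 3, 4, 5 and 7 it had 53.5, 118, 58.2, 76.2 and 22.6 CPM, and in systemic cKO 2, 4, 5, 6 and 7 it had 86.8, 32.2, 58.3, 67.5 and 109 CPM. The cKO groups covered nearly the same range, and the route difference was 0.10 (95% interval -0.701 to 0.909). Systemic cKO against systemic control gave -0.66 (adjusted p = 0.447) and topical cKO against topical control 0.31 (adjusted p = 0.997). How reads are divided between the copies is uncertain, because 56.5% of the 100-base windows of Hspa1a transcripts and 49.9% of those of Hspa1b also occur in transcripts of other genes, mostly each other.

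Hspa8 (ENSMUSG00000015656, chr9:40800984-40810087, plus strand) encodes HSC70, the form of HSP70 that cells make without stress. It ranged from 1354 to 1923 CPM in topical controls, 1198 to 1911 in topical cKO, 923 to 2032 in systemic controls and 1153 to 2189 in systemic cKO. The 4 ranges overlapped almost wholly, and its route differences were -0.0566 in controls and -0.0891 in cKO (95% intervals -0.568 to 0.455 and -0.600 to 0.422). Some 28.5% of its windows are shared with other transcripts, chiefly of the pseudogene Gm15459. Hsph1 (ENSMUSG00000029657, chr5:149614287-149636376, minus strand) encodes HSP110, an exchange factor for HSP70. Topical controls 1, 3, 5, 6 and 7 had 19.4, 17.3, 24.9, 26.5 and 19.0 CPM of it, and topical cKO 2, 3, 4, 5 and 7 had 15.1, 23.2, 17.2, 17.4 and 24.9 CPM. Systemic controls 1, 3, 4, 5 and 6 had 25.6, 20.7, 23.8, 16.9 and 23.4 CPM, and systemic cKO 2, 4, 5, 6 and 7 had 21.1, 23.2, 20.3, 26.2 and 27.8 CPM. No group stood off from another for Hsph1, whose route difference was 0.0471 in controls (95% interval -0.283 to 0.377) and 0.28 in cKO (-0.0498 to 0.611).

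Dnajb1 (ENSMUSG00000005483, chr8:83608193-83612653, plus strand) encodes HSP40, the J-domain protein that drives HSP70 in the cytosol and is itself a classical heat shock gene. In topical controls 1, 3, 5, 6 and 7 it had 1185, 1363, 706, 914 and 931 CPM, and in systemic controls 1, 3, 4, 5 and 6 it had 3603, 2029, 4907, 5328 and 1713 CPM. The lowest systemic control was above the highest topical one, and the systemic controls themselves spread over 1713 to 5328 CPM. The route difference in controls was 3.45-fold (log2 1.79, SE 0.317, adjusted p = 0.000713). Topical cKO 2, 3, 4, 5 and 7 had 715, 712, 965, 364 and 872 CPM, and systemic cKO 2, 4, 5, 6 and 7 had 2879, 2722, 2434, 1952 and 2849 CPM. Here too the groups did not overlap, with 1952 CPM in the lowest systemic library and 965 in the highest topical one. The difference in cKO was 3.54-fold (log2 1.82, SE 0.317, adjusted p = 0.000802) and 1.78 on the log2 scale without systemic cKO 2 (adjusted p = 0.00172), so it was about as large without the cKO library that stood apart. Groups without overlap were found for 7.54% of genes (higher) in controls and 4.07% in cKO. Genotype gave -0.49 by the topical route (95% interval -1.13 to 0.149, adjusted p = 0.964) and -0.45 by the systemic route (-1.09 to 0.186, adjusted p = 0.526). None of its transcript windows occurs in another gene.

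Hsp90aa1 (ENSMUSG00000021270, chr12:110690605-110702728, minus strand) encodes HSP90 alpha, the stress-inducible cytosolic form. Topical controls 1, 3, 5, 6 and 7 had 385, 452, 329, 339 and 477 CPM, and topical cKO 2, 3, 4, 5 and 7 had 473, 480, 483, 419 and 332 CPM. Systemic controls 1, 3, 4, 5 and 6 had 421, 477, 502, 440 and 268 CPM, and systemic cKO 2, 4, 5, 6 and 7 had 495, 307, 483, 422 and 504 CPM. All groups overlapped, and the lowest library was systemic control 6. The route differences were 0.0884 in controls (95% interval -0.327 to 0.503) and 0.0151 in cKO (-0.400 to 0.430). The genotype differences were 0.14 by the topical route and 0.0694 by the systemic route, with adjusted p of 0.997 and 0.918. Its constitutive sister Hsp90ab1, which had group means of 3017 to 3691 CPM, gave -0.15 in controls and 0.24 in cKO between routes and did not pass either (adjusted p = 0.680 and 0.587). Of the Hsp90aa1 windows, 38.0% occur in other transcripts, chiefly those of Gm12346.

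Hspb1 (ENSMUSG00000004951, chr5:135887919-135889563, plus strand) encodes HSP27. Topical controls 1, 3, 5, 6 and 7 had 2607, 1860, 1102, 2828 and 2947 CPM, and systemic controls 1, 3, 4, 5 and 6 had 5520, 3493, 6252, 6186 and 2795 CPM. Systemic controls 1, 3, 4 and 5 were above all topical ones, and number 6 lay below topical controls 6 and 7. The route difference in controls was 2.14-fold (log2 1.10, SE 0.294, adjusted p = 0.0132). Topical cKO 2, 3, 4, 5 and 7 had 1922, 2077, 3046, 1358 and 2192 CPM, and systemic cKO 2, 4, 5, 6 and 7 had 5865, 4224, 4097, 4485 and 4294 CPM. These groups did not overlap, and the systemic cKO libraries other than number 2 lay close together. The difference in cKO was 2.17-fold (log2 1.12, SE 0.294, adjusted p = 0.0185). It was 0.99 without topical cKO 5, which ended the call (adjusted p = 0.0596), and 1.01 without systemic cKO 2 (adjusted p = 0.0452). Genotype gave -0.0985 and -0.0783 by the topical and systemic routes, with 95% intervals of -0.701 to 0.504 and -0.681 to 0.524. A processed copy, Hsp25-ps1, shares 44.0% of the windows of Hspb1.

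Hspd1 (ENSMUSG00000025980, chr1:55077835-55088243, minus strand) and Hspe1 (ENSMUSG00000073676, chr1:55088132-55091307, plus strand) encode HSP60 and HSP10, and it is their shared start region that holds the run of 4 units shown earlier. Topical controls 1, 3, 5, 6 and 7 had 88.5, 84.1, 136, 94.9 and 93.0 CPM of Hspd1, and systemic controls 1, 3, 4, 5 and 6 had 74.8, 55.5, 52.0, 70.3 and 53.5 CPM. Every systemic control was below every topical one, and topical control 5 was far above its group. Hspd1 fell by 0.698 on the log2 scale in controls (0.616-fold, SE 0.195, adjusted p = 0.0165), and without topical control 5 the value was -0.56 and did not pass (adjusted p = 0.0533). In topical cKO 2, 3, 4, 5 and 7 Hspd1 stood at 104, 69.1, 85.4, 88.7 and 108 CPM, and in systemic cKO 2, 4, 5, 6 and 7 at 60.2, 111, 63.1, 71.0 and 53.3 CPM. Systemic cKO 4 was the highest of these 10 libraries and the groups overlapped, with a difference of -0.34 (95% interval -0.745 to 0.0603, adjusted p = 0.304).

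Hspe1 separated the controls in the same way. Counts of it in topical controls 1, 3, 5, 6 and 7 came to 32.9, 44.3, 41.0, 36.8 and 37.3 CPM, and in systemic controls 1, 3, 4, 5 and 6 to 28.1, 18.4, 17.3, 27 and 21.3 CPM. The groups did not overlap, which held for 6.26% of all genes as lower in systemic controls. Hspe1 fell by 0.779 on the log2 scale (0.583-fold, SE 0.183, adjusted p = 0.00559). Topical cKO 2, 3, 4, 5 and 7 had 38.4, 29.7, 40.6, 33.8 and 52.9 CPM, and systemic cKO 2, 4, 5, 6 and 7 had 20.6, 38.5, 29.6, 26.1 and 21.8 CPM. As with Hspd1, systemic cKO 4 was the high one. The difference in cKO was -0.51 (adjusted p = 0.0844). Without systemic cKO 4 both genes passed in cKO, Hspd1 at -0.555 (adjusted p = 0.0470) and Hspe1 at -0.67 (adjusted p = 0.0192). Between genotypes the systemic route gave 0.23 for Hspd1 and 0.29 for Hspe1 (adjusted p = 0.636 and 0.483), and the topical route -0.13 and 0.0214 (adjusted p = 0.997 for both). Their exons overlap by 112 bases on opposite strands, so reads there cannot be assigned without strand, which is not given in the sources used here.

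Hsf1 (ENSMUSG00000022556, chr15:76477422-76501913, plus strand) encodes the transcription factor that drives the response, which is controlled mainly at the protein and not at the transcript. Topical controls 1, 3, 5, 6 and 7 had 15.7, 15.5, 9.49, 17.1 and 18.1 CPM, and systemic controls 1, 3, 4, 5 and 6 had 24.4, 34.7, 27.1, 24.7 and 33.0 CPM. The groups did not overlap. The route difference in controls was 1.90-fold (log2 0.93, SE 0.189, adjusted p = 0.00238). Topical cKO 2, 3, 4, 5 and 7 had 16.3, 20.6, 15.8, 20.2 and 14.5 CPM, and systemic cKO 2, 4, 5, 6 and 7 had 28.7, 14.7, 14.7, 17.5 and 17.9 CPM. Only systemic cKO 2 was high, and the route difference in cKO was 0.0859 (95% interval -0.306 to 0.478). The high library was again the cKO library with satellite-like transcripts. Hsf1 was the one gene of the 10 whose 6 libraries with such transcripts (24.4 to 34.7 CPM) lay wholly above the other 14 (9.49 to 20.6 CPM), as did 1.63% of all genes. In controls, route and these transcripts cannot be told apart.

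**Figure D2:**
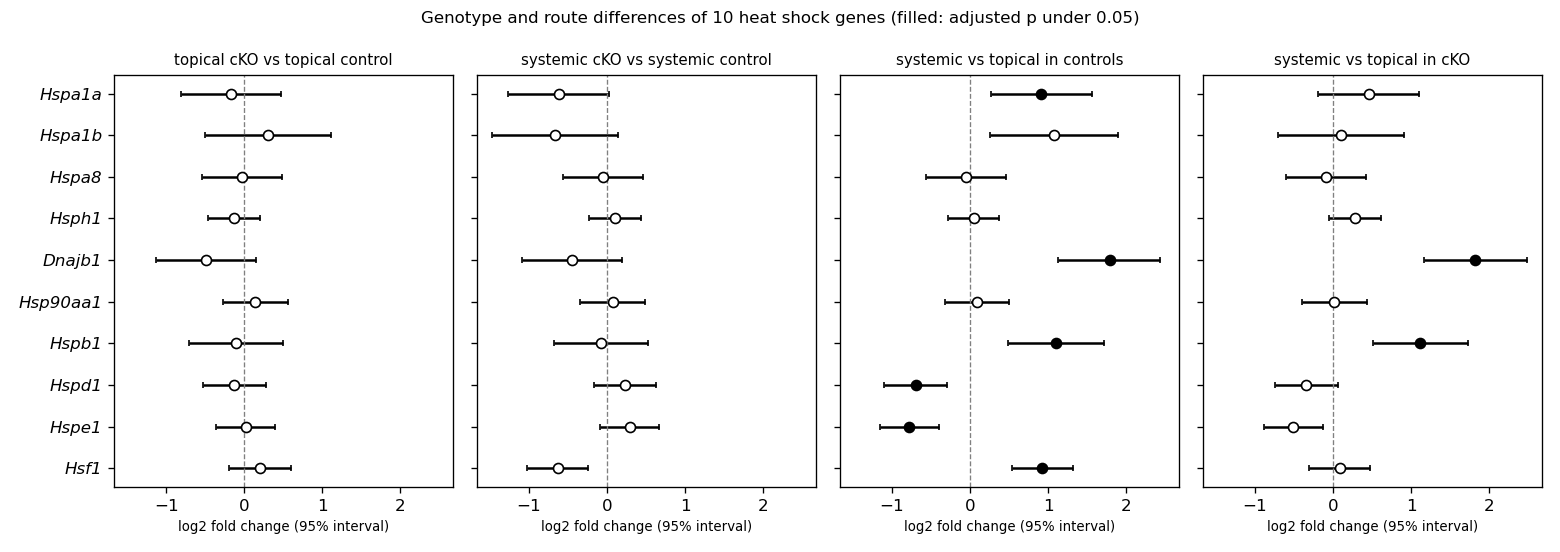
Log2 fold change of each heat shock gene with its 95% interval in 4 comparisons; filled points passed an adjusted p of 0.05. No point is filled in the 2 genotype panels, 6 are filled for the route in controls and 2, Dnajb1 and Hspb1, for the route in cKO.

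The knockout was compared with the control within each route, the comparison the study was built for. By the topical route 0 of the 10 passed, against 0.129% of all genes, and 0 had an unadjusted p under 0.05 (5.66% of all genes). The largest value there was that of Dnajb1, and DESeq2 called 0 as well. By the systemic route 0 passed in edgeR, against 1.89% of all genes, and 1, Hsf1, had an unadjusted p under 0.05 (15.3% of all genes). Hsf1 was lower in systemic cKO than in systemic control, with a mean of 18.7 ± 5.8 against 28.8 ± 4.8 CPM (SD, n = 5), a log2 value of -0.63 (SE 0.188) and an adjusted p of 0.0833. DESeq2 called it (-0.63, adjusted p = 0.0374), and so did edgeR without systemic cKO 2 (-0.84, adjusted p = 0.0046), the library in which it was high. With the satellite-like transcripts as a covariate its value was -0.00635. That value in effect sets systemic cKO 2 alone (28.7 CPM) against the systemic controls, since all of these carry the transcripts. In the interaction, the difference between the genotype effects of the routes, 0 of 10 passed in edgeR (0.25% of all genes) and 0 in DESeq2. An unadjusted p under 0.05 was found for 14% of all genes and for Hsf1, which had a p of 0.00477 (log2 -0.84, adjusted p = 0.147), and without systemic cKO 2 it passed (-1.04, adjusted p = 0.0152). The route difference called for Hspa1a, Hspd1, Hspe1 and Hsf1 in controls and not in cKO is therefore not shown to differ between genotypes. By the systemic route Hspa1b had the largest value in size of the 10 and Hspa1a was close to Hsf1, with 95% intervals of -1.47 to 0.144 and -1.27 to 0.0237, so falls and small rises are both inside them. Hspa1b also had the largest interaction value (-0.97, 95% interval -2.11 to 0.17, adjusted p = 0.444).

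Levels were compared between genes per kilobase of exon. Over the 20 libraries Hspb1 was highest, with a mean of 3354 CPM per kb (1069 to 6064), then Dnajb1 with 611 (114 to 1663), Hspa1a with 409 (134 to 937) and Hspa8 with 377 (215 to 509). Each overlapped with the next in this order, while every library of Hspb1 was above every library of Hspa1a and Hspa8. Hsp90aa1 followed at 108 (68.2 to 128), below every library of Hspa8 and above every library of Hspd1. Hspd1, Hspa1b and Hspe1, at 30.6, 26.9 and 21.6, overlapped with each other. Hsph1 and Hsf1 came last at 2.99 and 2.82 CPM per kb and overlapped too. In topical controls the means of Dnajb1, Hspa1a and Hspa8 were 318, 327 and 390 CPM per kb, and in topical cKO 227, 292 and 383, so Dnajb1 was the lowest of the 3 there. In systemic controls they were 1097, 615 and 375, and in systemic cKO 801, 400 and 360. Hspa1b, below Hspd1 over all libraries, was above it in systemic controls (40 against 23.2).

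Other chaperone genes were called between routes about as often as all genes in controls. Of 92 in 9 lists, 84 could be tested, and the route in controls called 15 (4 higher and 11 lower, median -0.17), where it called 18.3% of all genes (10.2% higher and 8.16% lower). In cKO it called 1 as higher and 1 as lower, with a median of -0.0411, where it called 9.22% of all genes, and in the topical and systemic genotype comparisons and the interaction 0 passed in edgeR (2, 12 and 12 at an unadjusted p under 0.05). In the J-domain list (10 tested) Dnaja1 rose in controls (log2 0.57, adjusted p = 0.0123) and Dnajc7 fell by 0.53 (adjusted p = 0.0220). Dnajb2 rose in cKO (0.66, adjusted p = 0.00399). Among 7 further HSP70 and HSP110 genes Hspa1l, which is expressed mainly in testis and neighbours Hspa1a, rose (0.97, adjusted p = 0.0305), and Hspa13 fell by 0.569 (adjusted p = 0.0468). Among 9 exchange factors and cochaperones of HSP70, Stub1, a ubiquitin ligase that marks chaperone clients, rose (0.53, adjusted p = 0.0332) and St13 fell by 0.633 (adjusted p = 0.0170). Bag3, an exchange factor known as an HSF1 target, had 16.6 ± 2.90 CPM in topical and 16.9 ± 2.04 in systemic controls (SD, n = 5).

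Among 13 genes of HSP90 and its cochaperones, the cyclophilin Ppid rose in controls (log2 0.62, adjusted p = 0.0060), while Ptges3, the p23 cochaperone of steroid receptors, fell by 0.67 (adjusted p = 0.0101). Fkbp5, a cochaperone of the glucocorticoid receptor and a known target of it, fell from 3.63 ± 1.33 to 1.34 ± 0.534 CPM (SD, n = 5; log2 -1.39, SE 0.427, adjusted p = 0.0275). Of 15 chaperones of the endoplasmic reticulum 5 fell in controls and none rose (8.16% of all genes fell and 10.2% rose), among them Pdia3 (-0.96), Calr (-0.87), Canx (-0.87) and Manf (-0.55), with adjusted p of 0.0103, 0.0170, 0.0188 and 0.0220. Hspa5, the main HSP70 of that compartment, had 413 ± 78.3 and 485 ± 155 CPM. Cct2, a subunit of the cytosolic chaperonin, was the one gene called of 14 in its list and fell by 0.933 (adjusted p = 0.000527). Of 9 other mitochondrial chaperones and proteases 0 were called in controls in edgeR (3 at an unadjusted p under 0.05), and Lonp1, a protease of the matrix, fell by 0.486 in cKO (adjusted p = 0.00339). In the list of 4 tested small heat shock proteins and that of 3 tested heat shock factors and their binding protein, 0 were called in any comparison (at most 1 at an unadjusted p under 0.05).

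**Figure D3:**
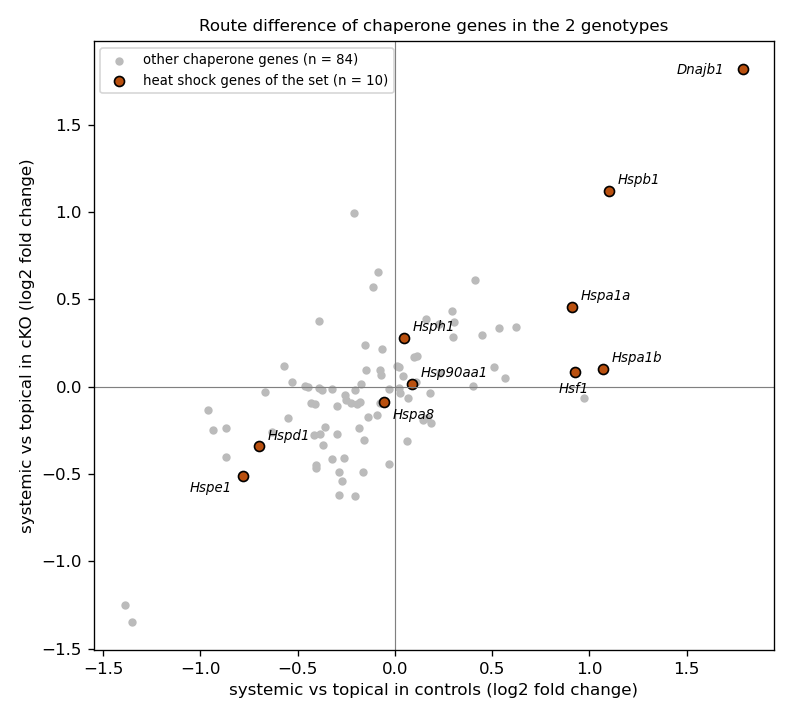
Log2 fold change between routes in controls (horizontal) and in cKO (vertical) for the 10 heat shock genes (orange) and 84 other chaperone genes (grey); the 2 axes come from separate mice. Dnajb1 and Hspb1 lie far up and right at 1.79 and 1.82 and at 1.10 and 1.12, and Hspa1b and Hsf1 lie right near the horizontal line.

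Some genes known to respond when tissue is taken apart were higher by the systemic route. Such genes, the immediate early transcription factors among them, are known to rise along with heat shock genes during digestion and sorting. Of 19 tested, without heat shock genes, the route in controls called 5, all higher (median of the 19, 0.83), where 10.2% of all genes were called as higher. In cKO it called 6, all higher (median 0.54), against 5.19% of all genes. The medians of all genes were 0.000806 and -0.0127, and most of the 19 did not pass in either genotype. Fos rose from 10116 ± 1835 to 18012 ± 4817 CPM (SD, n = 5) in controls (log2 0.83, adjusted p = 0.0388) and from 8644 ± 2959 to 16328 ± 3677 CPM in cKO (0.92, adjusted p = 0.0386). Egr1 rose by 1.26 and 1.55 (adjusted p = 0.0214 and 0.00982). Atf3 rose in controls (0.86, adjusted p = 0.0347) and in cKO had 0.84 (adjusted p = 0.0621). Jun, with 4835 ± 1222 CPM in topical and 4620 ± 1516 in systemic controls, and Junb, with 2195 ± 976 and 4203 ± 1519, did not pass (adjusted p = 0.895 and 0.0669). Between genotypes Fosb alone passed, by the systemic route (log2 1.71, adjusted p = 0.00521). The part of this response in the differences of the heat shock genes was not tested.

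**Figure D4:**
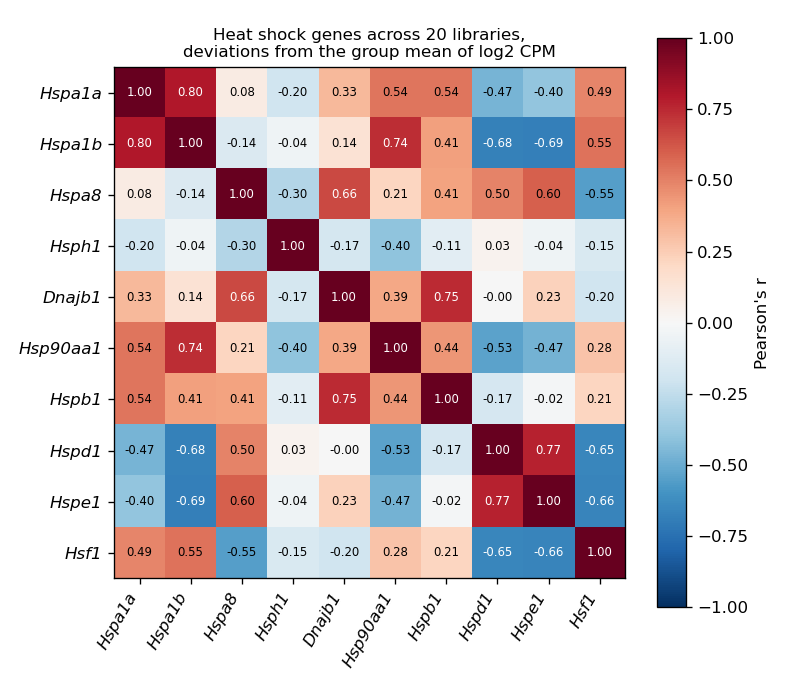
Pearson's r between pairs of the heat shock genes over 20 libraries, from deviations of log2 CPM from the group mean (blue negative, red positive). Hspa1a with Hspa1b, Hspd1 with Hspe1, and Dnajb1 with Hspb1 are the highest pairs at 0.80, 0.77 and 0.75, and Hspd1 and Hspe1 are negative against Hspa1b and Hsf1.

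Within groups the genes fell into more than 1 pattern. Taking each library's deviation from its group mean on the log2 scale, over 20 libraries that share their depth and scaling between genes, the HSP70 copies varied together (Pearson's r = 0.803), as did the mitochondrial pair (0.769) and Dnajb1 with Hspb1 (0.748). Hsp90aa1 followed Hspa1b (0.737), and Hspa8 followed Dnajb1 (0.662). Hspd1 and Hspe1 ran against Hspa1b (-0.677 and -0.687) and against Hsf1 (-0.654 and -0.661). Hsph1 was near 0 or negative with all. Reads shared between copies and between overlapping genes bear on the first pairs, and these values are descriptions with no test. Among all genes tested, the 10 most like the summed reads of Hspa1a and Hspa1b by the same measure were Gm20481 (0.988), Acap3 (0.817), Atg9a (0.799), Map3k11 (0.790), Rgma (0.776), Bsn (0.773), Tsc22d4 (0.772), Phldb3 (0.769), Plekhg5 (0.761) and Cc2d1a (0.760). Gm20481 is annotated on the opposite strand, and all 564 of its exonic bases lie within the exon of Hspa1a, so its reads cannot be told apart from those of Hspa1a without strand. No other member of the heat shock set was among those genes: the nearest, Hsp90aa1, ranked 231 with 0.560, and Dnajb1 had 0.313.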

How the data were processed

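The authors deposited 1 table of raw counts, whole-number read counts per Ensembl gene with no normalization and 1 column per mouse. Per the submitters' processing notes, reads were aligned with STAR and counted with featureCounts on GRCm38 (mm10); versions, strand and read length are not given in the sources used here. Per the labels, libraries were SmartSeq II from total RNA. No molecular identifiers are described. P-values measure the spread between mice.

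The counts were fitted in edgeR 4.0.16 (R 4.3.3) over all 20 libraries, with TMM scaling, filterByExpr (minimum count 10, minimum total count 15), robust quasi-likelihood fits and 1 coefficient per group. Levels are CPM with TMM scaling. Marker and satellite-like sums, and the split by sex (4 Y-linked genes over 5 CPM), use library totals alone. Intervals of log2 values are 95%. DESeq2 1.42.0 was an alternative. The pipeline was tested on simulated data. Gene positions come from GENCODE M21 and promoter sequences from RefSeq (GRCm38.p6). The members and gene lists were chosen with earlier results of these data known. Named genes were all 10 members, up to 4 genes called per list with the smallest adjusted p, Fos, Jun, Junb, Egr1 and Atf3, and the 10 most like the summed HSP70 genes. Hsp90ab1, Hspa5 and Bag3 were added as reference points after their values were seen.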

Additional observations from a re-analysis of the deposited data

Results flagged for a closer look

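Of 40 sets of 5 libraries (10 genes in 4 groups), 3 had 1 library whose gap to its nearest neighbour exceeded 0.71 of the range of its group, and chance gives about 1 in 20. Hspb1 stood at 5865 CPM in systemic cKO 2, where the next library had 4485 (gap ratio 0.781). Hsf1 stood at 28.7 CPM in the same library, with 17.9 next (0.77). Hspd1 stood at 136 CPM in topical control 5, with 94.9 next (0.793).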

How the results depend on the processing

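Of the counts of called heat shock genes, the topical genotype count was 0 under every alternative run. The systemic genotype count was 1 with DESeq2 and ran from 0 to 1 as each library was left out, as did the interaction count. The route count in controls was 7 with DESeq2, 5 with library totals alone (added after seeing the data) or with all genes that had a count, and 4 to 7 as each library was left out. It was 0 with the satellite-like split as a term, which coincides with the route among controls and so leaves the estimate to systemic cKO 2. In a fit of the control groups alone it stayed 6, with Hspa1b called and Hspa1a not. The route count in cKO was 2 under all alternatives other than leaving out a library, which gave 1 to 4. Same-numbered mice showed no steady likeness (20 pairs, r from -0.314 to 0.512, 9 over 0.1), which does not exclude a pairing. With the replicate block the counts were 0, 0, 0, 6 and 2. With library totals the median of all genes shifted by -0.109 in the systemic genotype comparison and -0.136 in the interaction, and the median of the heat shock genes between routes in cKO became -0.00635.

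No called value changed sign. Values that were not called did so as follows, and the cause was not tested. With library totals Hspe1 became -0.00773 (topical genotype), Hspa1b -0.0139 and Hsp90aa1 -0.0377 (both route in cKO). Summed with Hspa1a, Hspa1b became -0.138 (topical genotype). With the replicate block Hsp90aa1 became 0.0353 and Hspa8 0.128 (interaction), and with sex Hsp90aa1 became -0.00627 (route in cKO). With the satellite-like split, Hsph1 became -0.0703, Hspb1 0.275, Hspd1 -0.025 and Hspe1 -0.12 in the systemic genotype comparison, Hsp90aa1 0.0898 and Hspe1 -0.142 in the interaction, Hsp90aa1 -0.119 and Hspa8 0.335 for the route in controls, and Hsp90aa1 -0.0287 and Hsf1 -0.117 for the route in cKO. Leaving out each library gave ranges across 0 for 19 of 50 values. In the topical genotype comparison these were -0.366 to 0.0551 for Hspa1a, -0.0132 to 0.523 for Hspa1b, -0.092 to 0.0714 for Hspa8, -0.273 to 0.0252 for Hspb1, -0.196 to 0.0129 for Hspd1 and -0.111 to 0.105 for Hspe1. In the systemic one they were -0.0573 to 0.176 for Hsp90aa1, -0.213 to 0.0426 for Hspa8 and -0.224 to 0.0305 for Hspb1. In the interaction they were -0.138 to 0.237 for Dnajb1, -0.2 to 0.0341 for Hsp90aa1, -0.189 to 0.0667 for Hspa8 and -0.126 to 0.196 for Hspb1. For the route in controls they were -0.0216 to 0.133 for Hsph1 and -0.155 to 0.0904 for Hspa8. For the route in cKO they were -0.114 to 0.424 for Hspa1b, -0.0691 to 0.121 for Hsp90aa1, -0.246 to 0.00195 for Hspa8 and -0.116 to 0.163 for Hsf1.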
